A study of Arabidopsis thaliana with 48 samples.

Results

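Forms of 18S ribosomal RNA (rRNA) whose 3′ end lay 10, 11, 12 or 13 nt beyond the mature end were counted in Arabidopsis seedlings. Counting starts at the D site, where the finished 18S rRNA ends, so that these ends are +10, +11, +12 and +13. They form the part of the A1 cluster (+8 to +13) that lies farther from the D site, and are 4 of the 30 end positions counted in each library, taken from reads without a nontemplated tail. They were selected on the values of untailed reads in hot3-2 and WT in these same libraries, so that this comparison is described without a test. Reads at each position were expressed as a percentage of the untailed reads at the D site of the same library.

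The 48 libraries were made by 18S-ENDseq, in which rRNA is circularised and its 3′ end is read from the ligated junction. Seedlings were 18 days old, of 4 genotypes in the Col-0 ecotype, and gave 3 RNA fractions, which makes 12 groups of 4 libraries. The combined mutant hot3-2 dcl2 dcl4 was set against dcl2 dcl4, which carries the same DCL2 and DCL4 mutations, and hot3-2 was set against WT. HOT3 encodes the translation initiation factor eIF5B1, and its loss is represented by the insertion allele hot3-2. The Dicer-like enzymes DCL2 and DCL4 cut double-stranded RNA into small interfering RNAs, and the alleles are dcl2-1 and dcl4-2. The nonpolysome and polysome fractions came from a sucrose gradient and total RNA from the extract loaded on it. The study describes the total and nonpolysomal libraries of hot3-2 dcl2 dcl4, hot3-2 and WT as biological replicates. The labels do not say what was separate between the libraries of a group, and the p-values measure the spread between these libraries.

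The small ribosomal subunit leaves the nucleus with an 18S rRNA that still carries a piece of internal transcribed spacer 1 (ITS1) at its 3′ end. In yeast the endonuclease Nob1 removes this piece by cutting at the D site late in maturation, and eIF5B (Fun12) promotes the cut when the immature subunit meets a large subunit. Ends within ITS1 thus lie on 18S rRNA whose 3′ end is not finished. The paper proposes that molecules with A1 ends are direct precursors of 18S rRNA. It adds that they may instead be intermediates of degradation.

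The sequence around the ends is shown because it gives each position its last base and the base that follows. TAIR10.1 annotates 18S rRNA at AT2G01010 (chr2:3706-5513) and at AT3G41768 (chr3:14197677-14199484), each transcribed from the plus strand, and the reads were not assigned to either copy. In both copies the 4 positions fall in ITS1, at chr2:5523-5526 and chr3:14199494-14199497. The last 6 bases of 18S rRNA and the first 24 bases of ITS1 were identical in the copies, with the 4 positions in capitals:
18S 3′ end and ITS1: tcattgtcgatacctGTCCaaaacagaacg

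Written as RNA from the last 6 bases of mature 18S rRNA, the 4 ends differ by 1 base each, and the last base is in capitals:
+10: ucauugucgauaccuG
+11: ucauugucgauaccugU
+12: ucauugucgauaccuguC
+13: ucauugucgauaccugucC
None of the 4 ends finishes in A. The next base of the template is U after +10, C after +11, C after +12 and A after +13, so that only at +13 would an added A be identical to the template.

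Each library held 1815545 to 6468532 counted reads, of which 1342007 to 6103144 ended untailed at the D site. Reads at a single one of the 4 positions numbered from 146 to 66238, and no library had a count of 0 there. The Wilson 95% interval of a position's percentage had a half-width of 0.770% to 16.3% of the value, and it covers counting error only because PCR copies were not told apart. Among the 72 pairs of libraries within a group, 1 pair had 4 counts that agreed within counting error (chi-square test), and chi-square per degree of freedom ran from 2.10 to 2578. No library was left out. The D site itself took a smaller share of reads where HOT3 was mutated: in nonpolysome it averaged 76.1% ± 3.28 (SD, n = 4) of counted reads in hot3-2 dcl2 dcl4 and 90.8% ± 0.526 in dcl2 dcl4.

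Relative to the D site, hot3-2 held more untailed ends than WT at all 4 positions, and the ratio of hot3-2 to WT fell with each nucleotide away from the D site. In nonpolysome RNA, +10 reads were 0.622%, 0.410%, 0.685% and 0.488% of D-site reads in hot3-2 replicates 1 to 4, against 0.0525%, 0.0308%, 0.0554% and 0.0331% in WT. In the same libraries, +13 reads were 0.994%, 0.835%, 1.03% and 0.868% in hot3-2 and 0.350%, 0.195%, 0.377% and 0.200% in WT. The lowest hot3-2 library was 7.41 times the highest WT library at +10 and 2.21 times it at +13. The ratio of group means was 12.8 at +10, 8.96 at +11, 5.65 at +12 and 3.33 at +13.

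In polysome RNA, +10 reads were 0.0662%, 0.0607%, 0.0729% and 0.0696% of D-site reads in hot3-2 and 0.00711%, 0.00808%, 0.00614% and 0.00923% in WT. At +13 they were 0.0957%, 0.124%, 0.0989% and 0.126% in hot3-2 and 0.0334%, 0.0578%, 0.0325% and 0.0556% in WT. The ratios of means were 8.82, 6.98, 4.23 and 2.48 from +10 to +13. In total RNA the ratios were 11, 8.09, 5.20 and 3.12, with +10 at 0.246% ± 0.0212 in hot3-2 and 0.0223% ± 0.00312 in WT, and +13 at 0.471% ± 0.0122 in hot3-2 and 0.151% ± 0.0106 in WT. All 4 positions lay apart between hot3-2 and WT in each fraction, as did 93.1% of the 29 positions other than the D site in nonpolysome, 75.9% in polysome and 79.3% in total.

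Just outside the stretch, the nearest neighbour on the D side, +9, had a ratio of hot3-2 to WT means of 29.9 in nonpolysome, 38.7 in polysome and 28.9 in total. On the far side, +14 had ratios of 5.14, 3.21 and 4.64 in the same order. The ratio was thus lower at +10 than at +9, and higher at +14 than at +13, in every fraction. Farther out, +21 and +22 had ratios of 6.41 and 15.1 in nonpolysome, 4.15 and 8.48 in polysome and 5.67 and 11.1 in total. The fall from +10 to +13 thus did not continue to those ends. Reads at +14 were scarce, at 0.125% ± 0.0163 of D-site reads in hot3-2 nonpolysome and 0.0243% ± 0.00849 in WT nonpolysome.

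**Figure D1:**
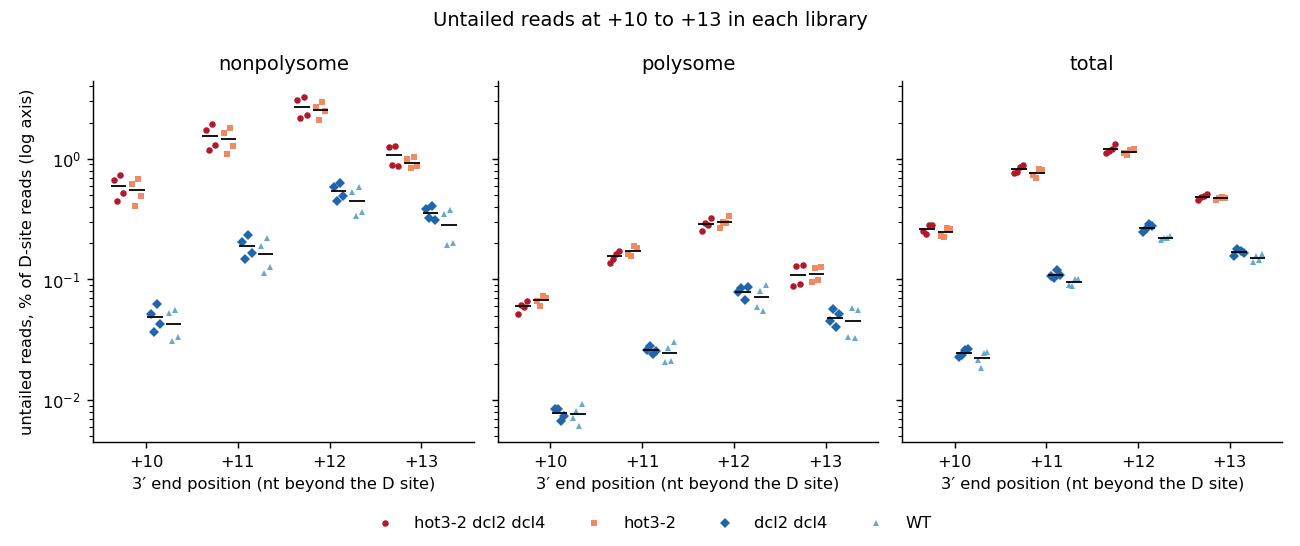
Untailed reads at +10, +11, +12 and +13 as a percentage of D-site reads (log axis) in nonpolysome, polysome and total RNA. Each point is 1 of 4 libraries and each black line a group mean. The genotypes with hot3-2 lie above those without it at every position, and the gap narrows toward +13.

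The same contrast was made in the dcl2 dcl4 background, where it did not choose the positions. Earlier results of these data were known when the comparison was set, so it is not an independent check. At +10 the nonpolysome libraries of hot3-2 dcl2 dcl4 held 0.662%, 0.447%, 0.735% and 0.521% of D-site reads, against 0.0514%, 0.0369%, 0.0627% and 0.0426% in dcl2 dcl4. At +11 they held 1.73%, 1.18%, 1.94% and 1.31%, against 0.203%, 0.149%, 0.234% and 0.165% in dcl2 dcl4. Every library with hot3-2 was above every library without it, and replicates 1 and 3 were the higher ones on both sides.

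At +12, the most frequent of the 4 ends, nonpolysome libraries of hot3-2 dcl2 dcl4 held 3.10%, 2.17%, 3.23% and 2.33%, against 0.581%, 0.450%, 0.631% and 0.489% in dcl2 dcl4. At +13 they held 1.26%, 0.890%, 1.29% and 0.871%, against 0.383%, 0.325%, 0.406% and 0.313% in dcl2 dcl4. The groups did not overlap at either position. The edgeR quasi-likelihood test, scaled to D-site reads, gave log2 fold changes of 3.61 ± 0.21 (SE) at +10, 3.03 ± 0.18 at +11, 2.33 ± 0.15 at +12 and 1.59 ± 0.16 at +13. The adjusted p in edgeR ran from 6.41e-14 at +10 to 1.57e-09 at +13.

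In polysome RNA the levels were lower in both genotypes and the order of the changes was the same. Reads at +10 were 0.0522%, 0.0620%, 0.0595% and 0.0658% of D-site reads in hot3-2 dcl2 dcl4 and 0.00845%, 0.00849%, 0.00673% and 0.00735% in dcl2 dcl4. Reads at +13 were 0.0884%, 0.128%, 0.0915% and 0.131% in hot3-2 dcl2 dcl4 and 0.0451%, 0.0566%, 0.0401% and 0.0515% in dcl2 dcl4. The groups were closest at +13, where the lowest hot3-2 dcl2 dcl4 library was 1.56 times the highest dcl2 dcl4 library. The log2 fold changes in edgeR were 2.95 ± 0.17, 2.58 ± 0.15, 1.86 ± 0.14 and 1.18 ± 0.18 from +10 to +13, with an adjusted p of 3.02e-05 at +13 and smaller values at the others.

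In total RNA, +10 reads were 0.251%, 0.237%, 0.285% and 0.284% of D-site reads in hot3-2 dcl2 dcl4 and 0.0228%, 0.0237%, 0.0260% and 0.0263% in dcl2 dcl4. Reads at +13 were 0.455%, 0.480%, 0.492% and 0.507% in hot3-2 dcl2 dcl4 and 0.157%, 0.178%, 0.172% and 0.166% in dcl2 dcl4. Coefficients of variation over the 4 genotypes and positions were 2.59% to 14% in total, against 10.4% to 34.4% in nonpolysome. The log2 fold changes in edgeR were 3.42 ± 0.11, 2.91 ± 0.09, 2.16 ± 0.09 and 1.52 ± 0.09 from +10 to +13, with adjusted p of at most 2.49e-11.

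All 4 positions were thus called higher in hot3-2 dcl2 dcl4 than in dcl2 dcl4 in each fraction, relative to the D site, while 93.1% of the 29 positions were called higher in nonpolysome, 82.8% in polysome and 75.9% in total. With so many positions called, the count of 4 does not set these ends apart. The median log2 fold change of the 4 was 2.68 in nonpolysome, 2.22 in polysome and 2.53 in total, beside 2.50, 1.79 and 2.32 over all positions. The sign at +13 depended on the reference. With edgeR's TMM factors the D site is left out and the 29 positions are centred. Their median then moved by -2.29, -1.60 and -2.17 in nonpolysome, polysome and total. On that scale the log2 fold change at +13 was -0.70 in nonpolysome, -0.41 in polysome and -0.65 in total. At +12 in total it was -0.02. A negative value there is a change below the centre of the positions, not a fall relative to the D site. At +10 and +11 the log2 fold change stayed positive on that scale in all 3 fractions. Total rRNA per cell was not measured, so for the part of the change that the positions share, more of these ends and less mature 18S rRNA cannot be told apart. The D-site count divides all positions of a library alike and does not enter differences between positions.

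**Figure D2:**
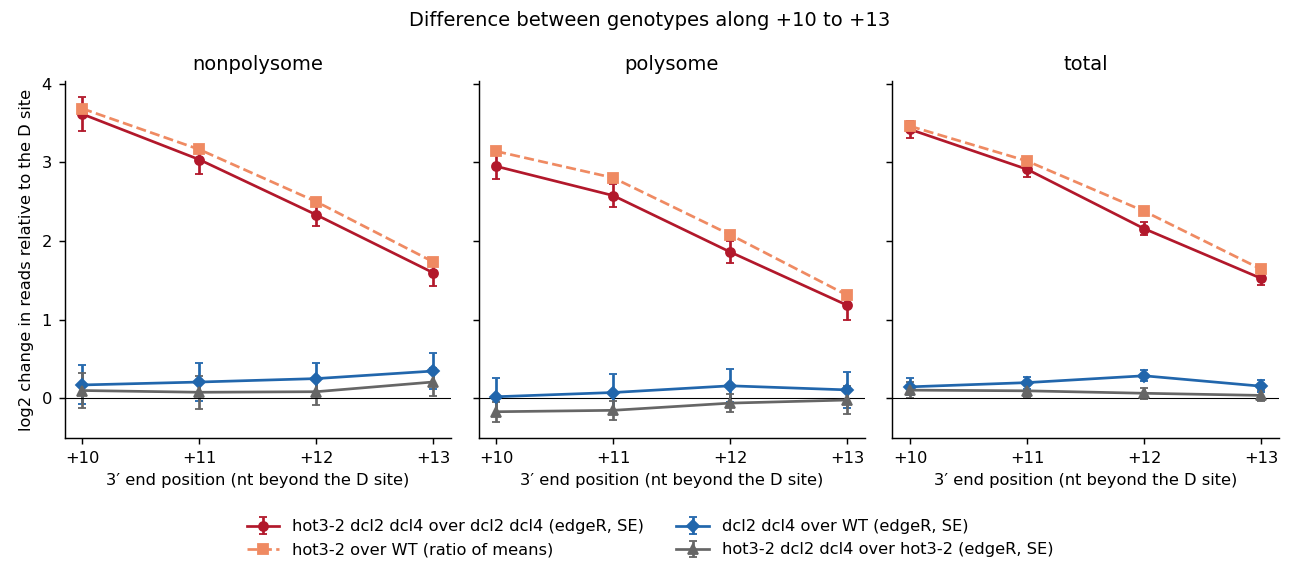
Log2 change in untailed reads relative to the D site between genotypes at +10 to +13, in nonpolysome, polysome and total RNA. Bars are edgeR standard errors, and hot3-2 over WT is the ratio of group means without a test. Both contrasts for hot3-2 fall steadily from +10 to +13, and both contrasts for dcl2 dcl4 stay near 0. TMM factors take the 29 positions and not the D site as reference. With them (not plotted), hot3-2 dcl2 dcl4 over dcl2 dcl4 is negative at +13 and, in total, at +12.

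How far the change differed along the 4 positions was measured without reference to the D site, as the ratio of +10 to +13 reads within a library. This ratio was 0.549 ± 0.0429 in hot3-2 dcl2 dcl4 nonpolysome and 0.135 ± 0.0167 in dcl2 dcl4 nonpolysome (SD, n = 4). In polysome it was 0.557 ± 0.0778 in hot3-2 dcl2 dcl4 and 0.162 ± 0.0200 in dcl2 dcl4. In total it was 0.546 ± 0.0365 in hot3-2 dcl2 dcl4 and 0.147 ± 0.0107 in dcl2 dcl4. The log2 ratio was higher by 2.03, 1.78 and 1.89 in nonpolysome, polysome and total, with no overlap between the groups in the 3 fractions. The exact two-sided permutation p was 0.0286 in each, the smallest that 4 against 4 libraries allow, and 0.124 after Benjamini-Hochberg adjustment over 13 comparisons of this ratio. The differences therefore did not pass 0.05 in that test, which cannot pass it for 3 comparisons among 13.

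The same question was put to the counts with edgeR, taking +13 reads as the library size. This test was added after the values had been seen. Relative to +13, reads at +10 were higher in hot3-2 dcl2 dcl4 than in dcl2 dcl4 by 2.03 ± 0.11 on the log2 scale (SE) in nonpolysome, 1.79 ± 0.14 in polysome and 1.89 ± 0.09 in total. Reads at +11 were higher by 1.45 ± 0.10, 1.42 ± 0.15 and 1.38 ± 0.08, and reads at +12 by 0.74 ± 0.08, 0.70 ± 0.16 and 0.63 ± 0.07, in the same order of fractions. The largest adjusted p in edgeR among these 9 values was 8.99e-05, for +12 in polysome. Of the 28 positions other than +13 and the D site, 67.9% were called higher relative to +13 in nonpolysome, 60.7% in polysome and 64.3% in total. With single libraries left out in turn, the log2 difference for +10 stayed between 1.70 and 2.10 over the 3 fractions.

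The ratio of +10 to +13 reads is given as a description for the other genotypes. In nonpolysome it averaged 0.586 ± 0.0748 in hot3-2 and 0.155 ± 0.00845 in WT, and in polysome 0.617 ± 0.117 in hot3-2 and 0.177 ± 0.0312 in WT. In total it averaged 0.521 ± 0.0357 in hot3-2 and 0.148 ± 0.0225 in WT. The lowest ratio among the 24 libraries with hot3-2 was 0.478, and the highest among the 24 without it was 0.213.

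The 4 ends therefore divided their reads differently with and without hot3-2. Of the untailed reads at +10 to +13, +10 took 8.94% to 11.2% in the 24 libraries with hot3-2 and 3.79% to 5.92% in the 24 without it. The share of +11 was 23.6% to 30.3% with hot3-2 and 15.1% to 20.6% without it. The share of +13 was 15.1% to 20.3% with hot3-2 and 27.6% to 33.8% without it. None of these 3 shares overlapped. The libraries with and without hot3-2 include those of hot3-2 and WT that chose the positions, so these ranges are a description. The share of +12 did overlap, at 42.4% to 48.5% with hot3-2 and 44.2% to 50.4% without it, and +12 was the most frequent of the 4 in all 48 libraries.

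**Figure D3:**
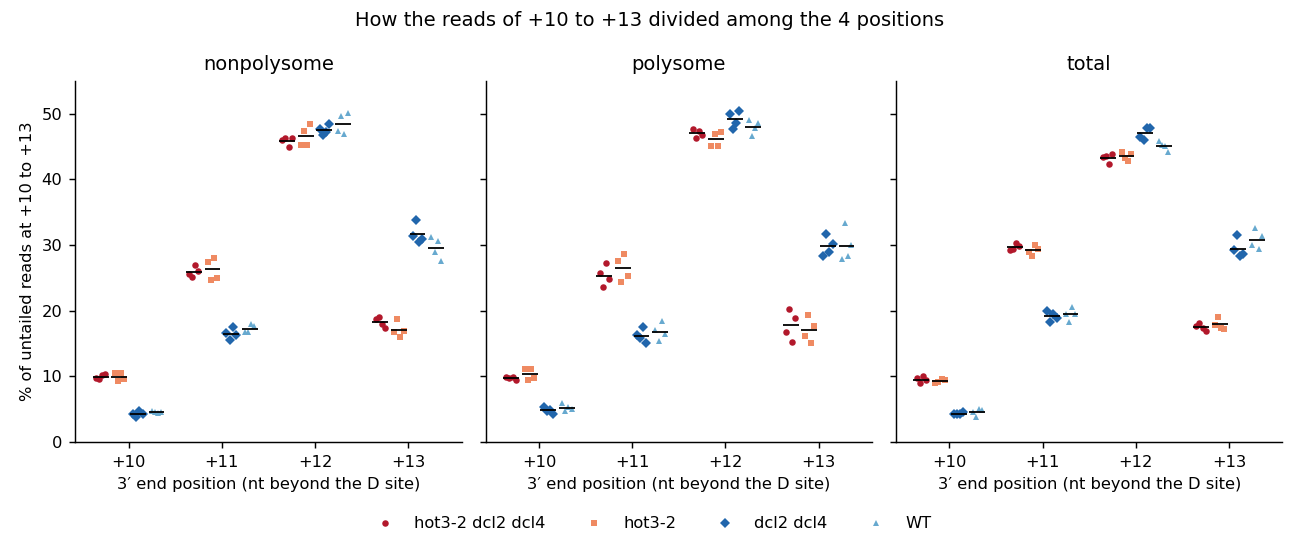
Percentage of the untailed reads at +10 to +13 that fell on each position, by fraction. Each point is 1 of 4 libraries and each black line a group mean. Libraries with hot3-2 have larger shares at +10 and +11 and a smaller share at +13, while the shares at +12 overlap.

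The order of the positions by reads, likewise a description, followed the same line. It was +12, +11, +13, +10 in the 24 libraries with hot3-2, and +12, +13, +11, +10 in the 24 without it, in every fraction. In total RNA the ratio of +11 to +13 reads was 1.70 ± 0.0711 in hot3-2 dcl2 dcl4 and 0.653 ± 0.0503 in dcl2 dcl4, and it was 1.63 ± 0.111 in hot3-2 and 0.633 ± 0.0572 in WT. Among all ends from +3 to +24, +12 was the most frequent in 40 of the 48 libraries, and +8 was the most frequent in the other 8. Over +1 to +24, which adds the ends nearest the D site, +12 was the most frequent in only 23 of the 48, with a lowest rank of 5. The 4 positions together made up 72.0% ± 2.17 of A1 reads in hot3-2 dcl2 dcl4 nonpolysome, against 93.9% ± 0.590 in dcl2 dcl4 nonpolysome. In polysome they made up 48.2% ± 2.00 of A1 reads in hot3-2 dcl2 dcl4 and 88.0% ± 1.43 in dcl2 dcl4, the remainder being +8 and +9.

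What loss of DCL2 and DCL4 adds when HOT3 is mutated was read from hot3-2 dcl2 dcl4 against hot3-2. None of the 4 positions was called in any fraction by edgeR, where 0% of the 29 positions were called in nonpolysome, 6.9% in polysome and 0% in total. At an unadjusted p under 0.05 the counts over the 29 positions were 6, 2 and 5, with 0 of the 4 positions in each. DESeq2 called 4, 2 and 1 of the 29 positions in the same order of fractions, and 0 of the 4 in each. At +12, hot3-2 dcl2 dcl4 averaged 2.71% ± 0.537 of D-site reads and hot3-2 averaged 2.55% ± 0.350 in nonpolysome. In polysome the values were 0.288% ± 0.0298 in hot3-2 dcl2 dcl4 and 0.301% ± 0.0289 in hot3-2. The log2 fold change at +12 was 0.08 (95% interval -0.24 to 0.41) in nonpolysome, -0.06 (-0.29 to 0.17) in polysome and 0.06 (-0.08 to 0.21) in total.

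In total RNA the same-numbered libraries of these genotypes deviated together, and the fit with the replicate number as a block called +10 and +11 higher in hot3-2 dcl2 dcl4. The log2 fold changes were 0.10 at +10 (edgeR adjusted p = 0.00563) and 0.10 at +11 (adjusted p = 0.0158), and 48.3% of the 29 positions were called higher in that fit. The combined mutant was the higher of the pair at +10 and +11 in 4 of 4 same-numbered pairs, with 0.285% against 0.266% at +10 in replicate 3, for example. The numbers also paired these genotypes in polysome, where the direction was the opposite. There the block gave -0.17, -0.15, -0.06 and -0.03 from +10 to +13, and called 0 of the 4 positions and 2 of the 29. The combined mutant was the higher in 1, 0, 0 and 2 of 4 polysome pairs in that order.

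The dcl2 dcl4 mutant was compared with WT in the same way, and again none of the 4 positions was called in any fraction, with 0% of the 29 positions called in nonpolysome, 0% in polysome and 0% in total by edgeR. At an unadjusted p under 0.05 the counts were 6, 0 and 6 positions, of which 0, 0 and 2 were among the 4. The largest of the values in total RNA was at +12, with 0.249%, 0.260%, 0.291% and 0.277% of D-site reads in dcl2 dcl4 and 0.213%, 0.220%, 0.222% and 0.228% in WT. These libraries did not overlap, and the log2 fold change was 0.29 ± 0.07 (edgeR adjusted p = 0.0702, with DESeq2 0.000406).

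The numbers paired these libraries in all 3 fractions. With the replicate block, +11, +12 and +13 were called higher in dcl2 dcl4 than in WT in total, by 0.20, 0.28 and 0.16 on the log2 scale (edgeR adjusted p = 0.00623, 0.00106 and 0.0270), where 20.7% of the 29 positions were called higher. In nonpolysome the block gave a call at +12 alone, of 0.28 (adjusted p = 0.0325), where 20.7% of positions were called higher. The value at +13 in nonpolysome was 0.35 without the block, 0.208 to 0.524 when single libraries were left out, and 0.12 within replicates 1 and 3 against 0.69 within replicates 2 and 4. In polysome the log2 fold changes of dcl2 dcl4 over WT were 0.02 to 0.16 without the block, and none of the 4 positions was called with or without it.

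The polysome fraction holds 18S rRNA from translating ribosomes, and the nonpolysome fraction holds 18S rRNA from the lighter part of the gradient. By the paper's methods, the part of the gradient between them was left out of both, so together they do not make up the total extract. In every genotype all 4 ends were most abundant relative to the D site in nonpolysome RNA and least abundant in polysome RNA. At +12, WT held 0.531%, 0.334%, 0.579% and 0.362% in nonpolysome, 0.0590%, 0.0809%, 0.0547% and 0.0899% in polysome, and 0.213%, 0.220%, 0.222% and 0.228% in total. The libraries of the 3 fractions did not overlap there. In hot3-2, +12 averaged 2.55% ± 0.350 in nonpolysome, 0.301% ± 0.0289 in polysome and 1.15% ± 0.0655 in total.

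Nonpolysome exceeded polysome at +10, +11, +12 and +13 by 3.30, 3.31, 3.23 and 3.30 on the log2 scale in hot3-2 dcl2 dcl4, by 3.03, 3.08, 3.09 and 3.07 in hot3-2, by 2.64, 2.85, 2.76 and 2.88 in dcl2 dcl4 and by 2.49, 2.72, 2.67 and 2.65 in WT. All 4 positions were called in each genotype by edgeR, as were 96.6%, 96.6%, 89.7% and 86.2% of the 29 positions in that order. With TMM factors the median of all positions moved by -2.32, -2.26, -1.81 and -1.47 in the same order of genotypes. The size of the change thus depended on the D site as reference. Unlike the genotype change, this fraction change was nearly level along the positions: its largest and smallest values differed by 0.08, 0.05, 0.24 and 0.23 in the 4 genotypes, against 2.02 for hot3-2 dcl2 dcl4 over dcl2 dcl4 in nonpolysome. The log2 difference in the ratio of +10 to +13 reads between these fractions was -0.02, -0.07, -0.27 and -0.17 in hot3-2 dcl2 dcl4, hot3-2, dcl2 dcl4 and WT, and none passed the exact permutation test (p from 0.0857 to 0.914, adjusted 0.223 to 0.990). In dcl2 dcl4, where the replicate numbers paired the fractions, edgeR with +13 reads as library size called +10 lower in nonpolysome with the replicate block (-0.27, adjusted p = 0.0434), where 89.3% of the 28 positions were called lower. Without the block the adjusted p was 0.0635.

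**Figure D4:**
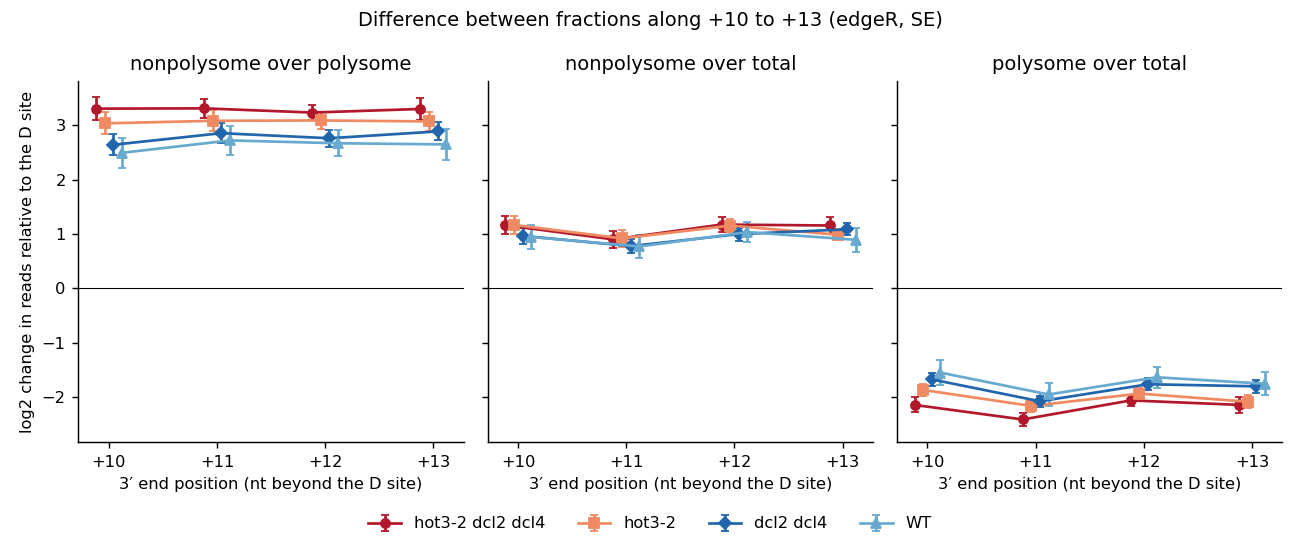
Log2 change in untailed reads relative to the D site between fractions at +10 to +13, with edgeR standard errors, for each genotype. Nonpolysome over polysome is close to 3 in the genotypes with hot3-2, nonpolysome over total is close to 1 (near 0 with TMM factors) and polysome over total is near -2, with little slope along the positions. TMM factors (not plotted) move the median of all positions for nonpolysome over polysome by -1.47 in WT to -2.32 in hot3-2 dcl2 dcl4.

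Relative to total RNA, nonpolysome was higher at all 4 positions in each genotype, with log2 fold changes of 0.77 to 1.17 and the smallest value at +11 in all 4 genotypes. The shares of the 29 positions called higher were 100% in hot3-2 dcl2 dcl4, 96.6% in hot3-2, 93.1% in dcl2 dcl4 and 75.9% in WT. With TMM factors, which moved the median of all positions by -0.79 to -1.24, none of the 4 positions was called higher in any genotype, and +11 turned negative in each (-0.34 in hot3-2 dcl2 dcl4, -0.20 in hot3-2, -0.10 in dcl2 dcl4 and -0.02 in WT). It was called lower in hot3-2 dcl2 dcl4 (edgeR adjusted p = 0.000999) and in hot3-2 (adjusted p = 0.0344). Polysome was lower than total at all 4 positions, with log2 fold changes of -2.41 to -1.55, and 72.4%, 72.4%, 55.2% and 58.6% of the 29 positions were called lower in hot3-2 dcl2 dcl4, hot3-2, dcl2 dcl4 and WT. Here too the value at +11 was the lowest of the 4 in each genotype (-2.41, -2.16, -2.07 and -1.95). Fractions were not weighed against each other in RNA mass, so these values describe the makeup of each fraction and not where most of the molecules were.

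Whether the change with hot3-2 differed between nonpolysome and polysome was tested as an interaction in the dcl2 dcl4 background. It was larger in nonpolysome by 0.66 ± 0.26 (SE) at +10, 0.46 ± 0.23 at +11, 0.47 ± 0.19 at +12 and 0.41 ± 0.24 at +13 on the log2 scale. Only +10 and +12 passed in edgeR (adjusted p = 0.0434 and 0.0478, against 0.0699 and 0.121 at +11 and +13), and 55.2% of the 29 positions were called higher. These calls were not stable: no position was called with TMM factors, where all 4 values were negative (-0.38, -0.58, -0.58 and -0.63), nor with all counted reads as library size or with tailed reads included. Leaving out 1 of the 16 libraries gave from 0 to 3 called positions, with 0 when replicate 1 or 3 of hot3-2 dcl2 dcl4 or replicate 1, 2 or 4 of dcl2 dcl4 was left out in either fraction.

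Replicates 1 and 3 of the nonpolysome fraction stood above replicates 2 and 4 at every one of the 4 positions in all 4 genotypes (16 of 16 sets of libraries), by 1.19 to 1.84 times. In polysome the order was the opposite in 11 of 16 sets, with replicates 1 and 3 at 0.581 to 1.07 times replicates 2 and 4. In total RNA the quotient was 0.888 to 1.06. The labels give no batch. With replicates 1 and 3 against 2 and 4 as a block, dcl2 dcl4 over WT in nonpolysome was called at +12 (0.28, edgeR adjusted p = 0.0354) and +13 (0.41, adjusted p = 0.0240), and the difference of the hot3-2 change between nonpolysome and polysome was called at +10 alone (0.66, adjusted p = 0.0321). The shares of the 29 positions called in these fits are not given, so the calls do not set these ends apart. With the replicate number as a block, 9 and 18 of the 29 positions were called in either direction in these comparisons. Within replicates 1 and 3 and within replicates 2 and 4, hot3-2 dcl2 dcl4 exceeded dcl2 dcl4 in nonpolysome by 3.61 and 3.61 at +10 and by 1.69 and 1.46 at +13 on the log2 scale. The corresponding values of nonpolysome over polysome in WT were 3.03 and 1.89 at +10 and 3.46 and 1.80 at +13, so that the size of the fraction change there depended on the pair while its direction did not.

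Nontemplated tails were the remaining readout at these ends, and it was not used to choose them. At +10, 30.1%, 30.7%, 32% and 32.5% of reads carried a tail of 1 nt or more in hot3-2 dcl2 dcl4 nonpolysome, against 25.3%, 26.0%, 24.8% and 27.6% in dcl2 dcl4 nonpolysome. At +11 the tailed share was 43.1%, 43.7%, 45% and 46.7% in hot3-2 dcl2 dcl4 and 25.6%, 27.7%, 26.8% and 28.3% in dcl2 dcl4. At +12 it was 24.9%, 25.6%, 26.9% and 27.2% in hot3-2 dcl2 dcl4 and 12.4%, 13.1%, 13.3% and 13.2% in dcl2 dcl4. Tails were thus more frequent with hot3-2 at these 3 positions, and most frequent at +11. At +13, the end followed by A in the template, few reads were tailed: 1.42%, 1.46%, 1.62% and 2.01% in hot3-2 dcl2 dcl4, and 0.543%, 0.406%, 0.730% and 0.567% in dcl2 dcl4. A tail whose first bases repeat ITS1 is counted at a later position, and the part of this in the low share at +13 was not tested.

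In nonpolysome the tailed share was higher in hot3-2 dcl2 dcl4 by 5.42 percentage points at +10, 17.5 at +11, 13.2 at +12 and 1.07 at +13, and in total by 6.51, 16.7, 12.7 and 1.17. The groups did not overlap (exact permutation p = 0.0286 at each, the smallest possible, adjusted over 30 positions to 0.0429 in nonpolysome and 0.0476 in total), and all 4 positions passed, as did 53.3% of the 30 positions in nonpolysome and 56.7% in total. In polysome the differences were 13.5, 23.9, 13.8 and 1.86 points, and none of the 4 passed the exact permutation test (adjusted p = 0.0659, 0.0659, 0.0659 and 0.101), nor did any of the 30 positions (0%). The unadjusted p at +10, +11 and +12 was again the smallest possible. Whether such a position passes depends on how many of the 30 reach that p, so passing or failing does not grade these ends. Without replicate 4 of hot3-2 dcl2 dcl4 or any 1 dcl2 dcl4 library in nonpolysome, and without replicate 1, 3 or 4 of hot3-2 dcl2 dcl4 or any 1 dcl2 dcl4 library in total, 0 of the 4 passed. Every difference kept its sign when single libraries were left out, and that at +11 stayed at 16.8 to 18.1 points in nonpolysome. With edgeR on the tailed counts all 4 were called in polysome too (adjusted p of at most 0.00476). The share of all positions called in that fit is not given here, so this count does not set the 4 ends apart.

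As a ratio, the change in the tailed share ran the other way along the positions from the change in untailed reads. Untailed reads are part of the divisor of this share, so these gradients are not independent. In total RNA, with the 4 libraries pooled, tailed reads themselves numbered 13426 at +10 and 936 at +13 in hot3-2 dcl2 dcl4. The counts in dcl2 dcl4 were 1018 at +10 and only 109 at +13. The log2 fold change of the tailed share in edgeR was 0.27, 0.72, 1.01 and 1.55 from +10 to +13 in nonpolysome, 0.61, 0.88, 1.09 and 1.44 in polysome and 0.34, 0.77, 1.03 and 1.74 in total. With tailed reads counted together with untailed ones, the difference in the +10 to +13 ratio was 2.13 in nonpolysome, 2.04 in polysome and 2.00 in total on the log2 scale. A tail at +13 that begins with A is counted at a later position. This count therefore does not return such reads to +13 and cannot show the ratio free of tailing. Over all 4 genotypes and 3 fractions, the tailed share at +11 was 37.9% to 54.5% in the 24 libraries with hot3-2 and 23.2% to 31.9% in the 24 without it. At +12 it was 23.6% to 29.2% with hot3-2 and 10.4% to 15.1% without it. At +10 it was 29.7% to 41.1% with hot3-2 and 20.2% to 29.2% without it, and at +13, where the ranges overlapped, 1.32% to 4.41% with hot3-2 and 0.374% to 1.58% without it.

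**Figure D5:**
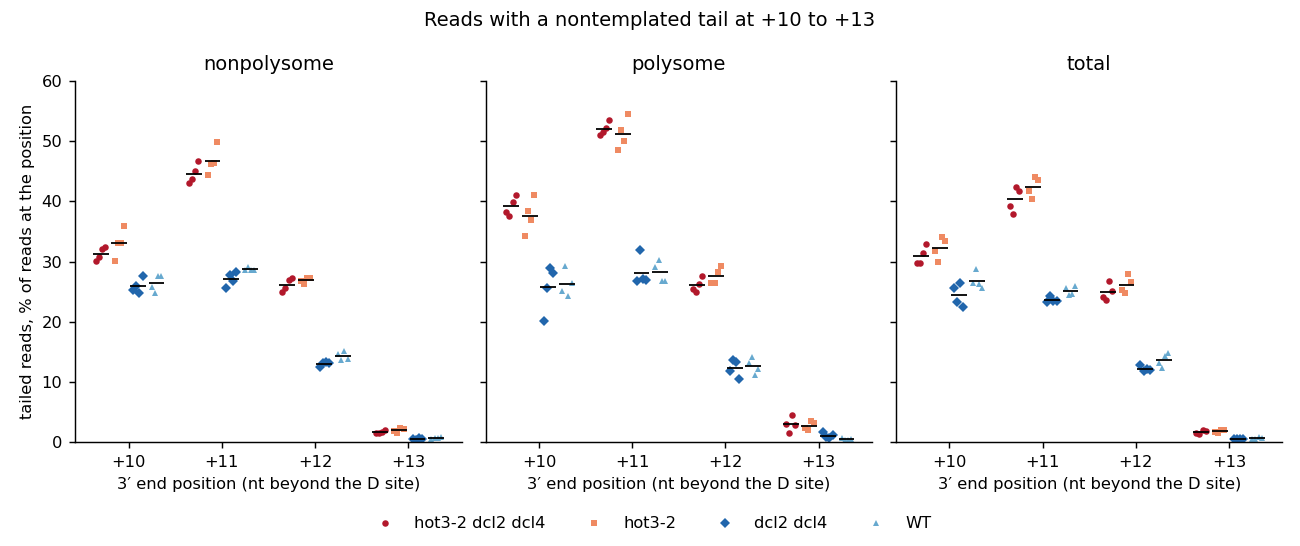
Reads with a nontemplated tail as a percentage of all reads at +10, +11, +12 and +13, by fraction. Each point is 1 of 4 libraries and each black line a group mean. The genotypes with hot3-2 lie above those without it at +10, +11 and +12, and few reads are tailed at +13 in any genotype.

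The lengths of the tails differed between the ends. In hot3-2 dcl2 dcl4 total RNA, with the 4 libraries pooled, tails of 1 nt made up 28.8% of the tailed reads at +10, 18.2% at +11, 41.0% at +12 and 44.8% at +13. Tails of 5 nt or more made up 22.4%, 13.5%, 2.09% and 17.3% in the same order. In dcl2 dcl4 total RNA the tails of 1 nt made up 27.8%, 24.7%, 51.8% and 48.6%, with 109 tailed reads at +13. These pooled shares were not tested.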

How the data were processed

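The authors deposited raw counts of reads for each 3′ end position (30 positions) and tail length (0 to 10 nt) in each of 48 libraries. Reads had been trimmed, mapped to a 45S rDNA reference and their ends counted by the authors with their own script, and the submitters' processing notes name cutadapt 4.2 and STAR 2.7.10b. The aligner decides where template ends and tail begins, so tails and neighbouring positions are not independent. Positions 1901 to 1904 of that reference, tail length 0, were taken as +10 to +13 from the D site at 1891. The positions, comparisons and tests were chosen with earlier results of these data known. The positions named are these 4 and, for context, +8, +9, +14, +21, +22 and the D site.

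Single positions were tested with edgeR 4.0.16 in R 4.3.3 (glmQLFit and glmQLFTest, D-site count as library size, at least 10 counts in at least 4 libraries, Benjamini-Hochberg over 29 positions, adjusted p under 0.05). Only the compared groups entered a fit. Intervals are the estimate ± 1.96 SE. Read ratios and tailed shares were compared by exact two-sided permutation over 70 arrangements. Alternatives were TMM, all reads as library size, no filter, DESeq2 1.42.0, tailed reads included, blocks, and single libraries left out. The edgeR and permutation steps were tested on simulated data. Replicate numbers were taken to pair libraries where all 4 same-numbered pairs had correlated deviations from their group means (r over 0.1), as in 12 of 21 comparisons, over which r ranged from -0.58 to 0.891. Sequences and coordinates came from TAIR10.1 and its RefSeq annotation.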

Additional observations from a re-analysis of the deposited data

Results flagged for a closer look

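Of 96 sets of 4 libraries examined (the level and the tailed share at each of the 4 positions in the 12 groups), 2 held a library far from the others, where chance alone flags about 1 set in 20. At +11, the tailed share was 31.9% in dcl2 dcl4 polysome replicate 2 and 26.8%, 27.1% and 26.9% in the other libraries of that group. It was also 29.1% in WT nonpolysome replicate 2, against 28.5%, 28.6% and 28.5% in the others, a gap of under 1 percentage point.

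The change with hot3-2 in the dcl2 dcl4 background was larger in nonpolysome than in polysome at +10 (0.663 on the log2 scale, edgeR adjusted p = 0.0434) and at +12 (0.472, adjusted p = 0.0478). Both values turned negative with TMM factors.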

How the results depend on the processing

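Values are log2 differences or counts of called positions among +10 to +13. With TMM factors, hot3-2 dcl2 dcl4 over dcl2 dcl4 had 2 positions called higher in nonpolysome and 2 in total, and was -0.702 at +13 in nonpolysome, -0.411 at +13 in polysome, and -0.0182 at +12 and -0.645 at +13 in total. On that scale hot3-2 dcl2 dcl4 over hot3-2 was 0.0424 at +12 and 0.0751 at +13 in polysome, and -0.00171, -0.0339 and -0.0613 at +11, +12 and +13 in total, and dcl2 dcl4 over WT was -0.0421 at +10 in nonpolysome. Nonpolysome over total then had 0 positions called higher in each genotype, and +11 was called lower in hot3-2 dcl2 dcl4 and hot3-2, with -0.0773, -0.341, -0.0622 and -0.0816 from +10 to +13 in hot3-2 dcl2 dcl4, -0.199 at +11 and -0.117 at +13 in hot3-2, -0.103 at +11 in dcl2 dcl4 and -0.0189 at +11 in WT. The difference of the hot3-2 change between nonpolysome and polysome had 0 calls with TMM factors (-0.382, -0.58, -0.58 and -0.634), 0 with all counted reads as library size, 0 with tailed reads included, 1 with DESeq2, 1 with the replicate block, 1 with replicates 1 and 3 against 2 and 4 as a block, and 0 to 3 when single libraries were left out. Causes were not tested.

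The replicate block gave 2 calls for hot3-2 dcl2 dcl4 over hot3-2 in total, and for dcl2 dcl4 over WT 3 in total and 1 in nonpolysome. Apart from these, the difference between nonpolysome and polysome above, and +10 relative to +13 in dcl2 dcl4 (nonpolysome over polysome), it changed no count of calls by over 1.5 times. DESeq2 gave 1 call for dcl2 dcl4 over WT in total, where it called 1 of the 29 positions. Replicates 1 and 3 against 2 and 4 as a block gave 2 calls in nonpolysome, and the share over the 29 positions is not given.

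Leaving out single libraries turned the sign of uncalled values. The change of hot3-2 dcl2 dcl4 over hot3-2 ranged from -0.0215 to 0.222 at +10, -0.0525 to 0.203 at +11 and -0.0111 to 0.178 at +12 in nonpolysome, and from -0.122 to 0.000564 at +12 and -0.116 to 0.0699 at +13 in polysome. In polysome, dcl2 dcl4 over WT ranged from -0.067 to 0.122 at +10, -0.00496 to 0.19 at +11 and -0.018 to 0.255 at +13. The count of called tailed shares ranged from 0 to 4 in nonpolysome and from 0 to 4 in total. It was 4 in polysome with edgeR, for which the share over all positions is not given.

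For the read ratio of +10 to +13, edgeR with +13 reads as library size, added after seeing the data, passed in nonpolysome (2.03), polysome (1.79) and total (1.89) for hot3-2 dcl2 dcl4 over dcl2 dcl4, where the exact permutation test did not. Small differences changed sign: the ratio of +10 to +12 gave 0.0278 for hot3-2 dcl2 dcl4 over hot3-2 in nonpolysome and 0.066 for nonpolysome over polysome in hot3-2 dcl2 dcl4, and the ratio of +11 to +13 gave 0.0444 for dcl2 dcl4 over WT in total and 0.0527 for nonpolysome over polysome in WT. Leaving out single libraries gave -0.114 to 0.0647 for dcl2 dcl4 over WT in total, and, for nonpolysome over polysome, -0.0794 to 0.0632 in hot3-2 dcl2 dcl4 and -0.171 to 0.0263 in hot3-2. Reads at a position numbered at least 146, so depth was lowest at +10 in polysome RNA without hot3-2.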
